A study of Mus musculus with 6 samples.

Results

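The IFITM genes encode small interferon-induced transmembrane proteins, and 6 mouse members were followed here in epiblast stem cells (EpiSCs) with and without Dicer. The members were Ifitm1, Ifitm2, Ifitm3, Ifitm5, Ifitm6 and Ifitm7, picked by symbol from the 20193 genes measured. A gene with more than 1 probe set was represented by the one with the highest mean log2 level over the 6 arrays, a choice that is blind to group. The family was selected with earlier results of these data known, so its differences between deleted and control cells are given as a description.

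The deleted group was EpiSCs that carried floxed Dicer alleles (Dicer fx/fx), were given 0.3 µM 4-OH-tamoxifen for 3 days and then grown for 2 days without it, and are labelled Dicer -/-. The control group was Dicer fx/fx EpiSCs, plated and split alongside and never given tamoxifen. Both were cultured in 20 ng/ml Activin and 12 ng/ml bFGF, which hold cells in the primed pluripotent state of the post-implantation epiblast, and RNA was taken on day 5. Experiments 18, 19 and 20 each gave 1 deleted and 1 control sample, hence 6 Affymetrix mouse gene arrays. Effects of tamoxifen and of recombination cannot be told apart from loss of Dicer, since no control had the drug. The number of arrays limits the precision.

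IFITM proteins sit in the plasma and endosomal membranes and hinder the fusion of enveloped viruses with the cell. Ifitm3 and Ifitm1 are also known as markers of the early germ line and of the epiblast around the primitive streak in mouse embryos. Dicer cuts microRNA precursors into mature microRNAs, so cells without it lose their mature microRNAs. Ifitm5, Ifitm2, Ifitm1, Ifitm3 and Ifitm6 follow one another in this order on chromosome 7 with no other measured gene between them, and Ifitm7 stands alone on chromosome 16.

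The start regions of Ifitm1, Ifitm2 and Ifitm3 are shown because these neighbours differed in how their signal varied over the arrays. Each run holds the 250 bases before the RefSeq transcript start and the first 30 after it (GRCm38.p6, gene strand, 5′ to 3′), and capitals mark GAAA, any 2 bases and GAAA on either strand, the core of the interferon-stimulated response element. The windows lie at chr7:140967826-140968105 on the plus strand for Ifitm1, chr7:140955932-140956211 on the minus strand for Ifitm2 and chr7:141010715-141010994 on the minus strand for Ifitm3.
Ifitm1: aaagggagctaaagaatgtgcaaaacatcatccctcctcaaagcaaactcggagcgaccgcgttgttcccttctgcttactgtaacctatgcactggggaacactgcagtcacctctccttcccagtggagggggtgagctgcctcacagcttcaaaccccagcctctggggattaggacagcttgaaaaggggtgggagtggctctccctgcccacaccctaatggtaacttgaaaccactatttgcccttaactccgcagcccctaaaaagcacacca
Ifitm2: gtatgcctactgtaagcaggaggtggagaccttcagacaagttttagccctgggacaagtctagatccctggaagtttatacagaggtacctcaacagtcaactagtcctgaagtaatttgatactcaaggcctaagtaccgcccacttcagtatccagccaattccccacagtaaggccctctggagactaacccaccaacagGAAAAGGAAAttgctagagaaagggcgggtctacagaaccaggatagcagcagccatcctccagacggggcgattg
Ifitm3: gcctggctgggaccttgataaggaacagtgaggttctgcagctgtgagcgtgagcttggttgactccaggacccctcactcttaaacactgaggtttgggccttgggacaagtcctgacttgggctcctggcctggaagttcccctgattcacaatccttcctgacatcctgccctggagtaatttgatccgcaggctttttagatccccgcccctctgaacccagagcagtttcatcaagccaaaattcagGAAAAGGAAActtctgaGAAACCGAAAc

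Ifitm3 held 2 matches, GAAAAGGAAA at bases 3 to 12 and GAAACCGAAA at bases 20 to 29 after the start. Ifitm2 held 1, GAAAAGGAAA, at bases -46 to -37. The letters were not in the windows of Ifitm1, Ifitm5, Ifitm6 or Ifitm7, while 3.28% of 32851 RefSeq start regions of this length hold them. A second motif, the gamma-activated site (TTC, any 3 bases and GAA), matched in Ifitm3 at bases 14 to 22, where it overlaps the second response element match, and in Ifitm6 at bases -10 to -2. It was found in 7.83% of all start regions. These are matches of letters and say nothing on binding.

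The labels were checked at the deleted gene and at markers of the cells. Dicer1 had array intensities of 601.6, 553.1 and 645.4 in deleted cells of experiments 18, 19 and 20, against 1836, 2079 and 2098 in controls, a log2 difference of -1.74 ± 0.09 (SE, n = 3 per group; limma adjusted p = 0.0452). It lost its call with the experiment as a block (limma adjusted p = 0.0666), with trend and robust settings (limma adjusted p = 0.107) and without any 1 array (limma adjusted p = 0.226 to 0.729). Summed over 10 epiblast markers, intensity was 46790, 48730 and 39270 in deleted cells of experiments 18, 19 and 20, against 43160, 47900 and 48380 in controls. The median log2 difference of these markers was 0.09, -0.06 and -0.26 in the 3 experiments, so they were lower with deletion in experiment 20, where Ifitm3 had its highest signal. Nanog, a pluripotency factor gene, had the largest mean difference of them and read 6222, 6811 and 1915 in deleted cells, against 5106, 6963 and 4518 in controls. The part of this difference in the IFITM values was not tested. The summed signal of 8 fibroblast markers was 1890 to 2015 in deleted cells and 1782 to 2154 in controls, and that of 6 endothelial markers 645.9 to 734.5 and 677.3 to 791.9. For 8 blood and immune markers the sum was 1644 to 3196 in deleted cells and 1557 to 3585 in controls, with Cd68 the brightest of them in each array. Array signals do not reach 0, so no marker could be called absent. In whole cultures, more cells of a type and more RNA per cell cannot be told apart.

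Ifitm3, which encodes the endosomal member that restricts many enveloped viruses, had close to double the signal in deleted cells of every experiment. Its array intensity was 1482, 1292 and 3644 in deleted cells of experiments 18, 19 and 20, against 755.0, 736.2 and 1766 in controls. Both groups had their highest array in experiment 20, and the groups overlapped, because control 20 lay above deleted 18 and deleted 19. Within experiments the deleted sample was 1.96-fold higher in experiment 18, 1.76-fold higher in experiment 19 and 2.06-fold higher in experiment 20. These differences, 0.97, 0.81 and 1.05 on the log2 scale, had an SD of 0.12 around a mean of 0.94.

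The fit without the experiment gave Ifitm3 an SE of 0.53, which holds the high baseline of experiment 20, and limma's adjusted p was 0.851. Blocking on the experiment brought the SE to 0.07 and the adjusted p to 0.138, from an unadjusted p of 3.94e-05 that ranked Ifitm3 at place 4 of 20193 genes. Without experiment 20 the blocked fit called it (log2 difference 0.89, limma adjusted p = 0.0109), as 1 of 388 genes called among the 20193. Without experiment 18 or experiment 19 the blocked fit called 0 genes, with limma adjusted p = 0.472 and 0.428 for Ifitm3. These fits were added after results were known. Leaving out deleted 20 alone brought the unblocked difference to 0.48. By mean difference Ifitm3 stood at place 20 of all genes, and 6 genes, itself included, had a smallest rise over the 3 experiments as large as its 0.81. Their values come from the same comparison that made the family of interest and are given as a description.

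**Figure D1:**
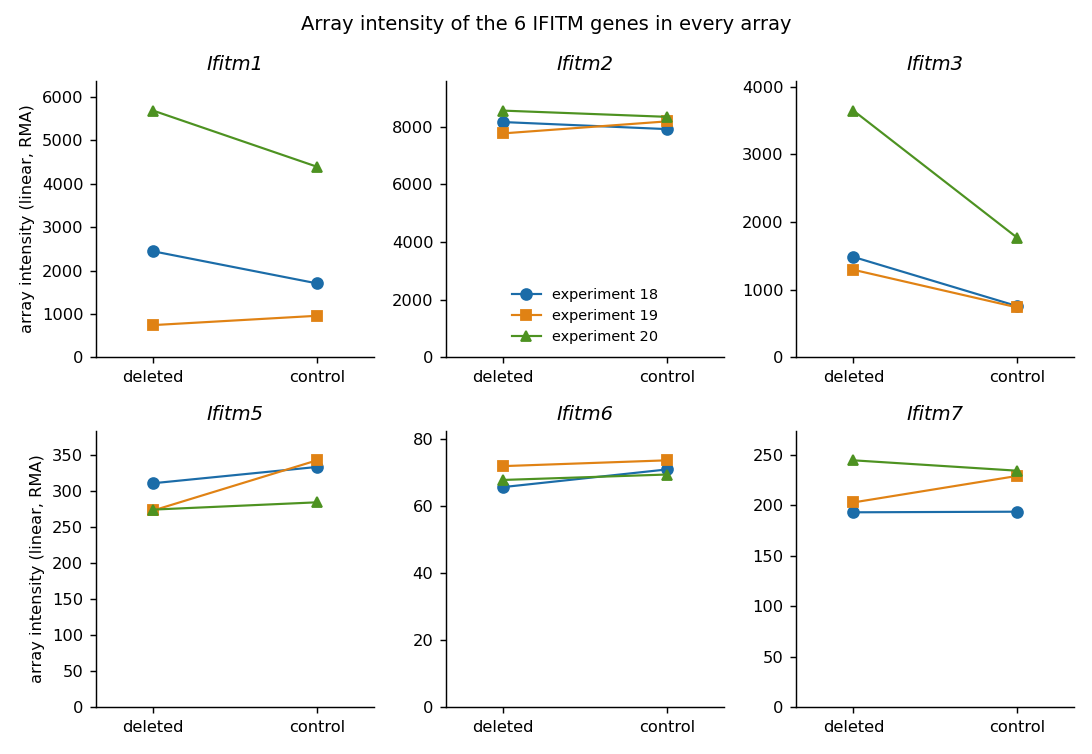
Array intensity on a linear scale starting at 0 (vertical axes differ between panels) for the 6 IFITM genes in deleted and control cells; each line joins the 2 arrays of an experiment. For Ifitm3 all 3 lines are higher on the deleted side, for Ifitm1 the lines of experiments 18 and 20 are and that of experiment 19 is not, and Ifitm2, Ifitm5, Ifitm6 and Ifitm7 are nearly level.

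Ifitm1, whose product acts mainly at the cell surface, varied most among the members and had no common direction with deletion. Its intensity was 2443, 740.7 and 5688 in deleted cells of experiments 18, 19 and 20, against 1703, 955.3 and 4394 in controls. The groups overlapped over nearly their whole range. The deleted sample had 1.43 times the control signal in experiment 18, 0.775 times in experiment 19 and 1.29 times in experiment 20. The mean log2 difference was 0.18. Its SE was 0.90 without the block and 0.18 with it, and limma's adjusted p was 0.996 and 0.644 in these fits. Its sign was not stable, since without control 19 the difference was -0.33, without deleted 20 it was -0.52 and with array weights it was -0.07.

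A second probe set names Ifitm1 together with the pseudogene Gm7676 and was kept out of the choice above. It read 1391, 427.1 and 3951 in deleted cells of experiments 18, 19 and 20, against 943.6, 516.6 and 2840 in controls. The order of the 6 arrays was the same as for the Ifitm1 probe set, and so was the direction within each experiment (1.47, 0.827 and 1.39 times the control signal).

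Ifitm2, a close relative of Ifitm3 with an antiviral role in endosomes, was flat. Its intensity was 8167, 7774 and 8564 in deleted cells of experiments 18, 19 and 20, against 7922, 8191 and 8348 in controls. The log2 difference was 0.002 ± 0.064 (SE, n = 3 per group; limma adjusted p = 0.9996), and all 6 arrays lay within 0.14 log2 units. The other 2 probe sets that name Ifitm2 gave log2 differences of 0.03 ± 0.06 and -0.04 ± 0.09. Paralogues of similar sequence can share signal on an array; probe sequences were not used here, so this was not tested. The 3 probe sets for Ifitm2 spanned 0.14, 0.12 and 0.26 log2 units over the 6 arrays, where that of Ifitm3 spanned 2.31 and that of Ifitm1 2.94.

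The remaining members had lower readings and small differences. Ifitm5, known from bone-forming cells, where its product is also called BRIL, read 310.5, 272.7 and 273.9 in deleted cells of experiments 18, 19 and 20, against 333.1, 342.3 and 284.0 in controls. It was lower with deletion in all 3 experiments, with groups that overlapped and a log2 difference of -0.16 ± 0.10 (SE, n = 3 per group). Ifitm6 read 65.67, 71.93 and 67.80 in deleted cells, against 70.94, 73.66 and 69.42 in controls. It too was lower in all 3, by a mean of 0.06 on the log2 scale (SE 0.06), and its groups overlapped. Ifitm7 read 193.2, 203.0 and 244.8 in deleted cells, against 193.8, 229.3 and 234.5 in controls, with no common direction and a log2 difference of -0.04 ± 0.12.

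Over the family, 3 of 6 members had a higher mean in deleted cells, and the median log2 difference was -0.02, against -0.04 over all genes. Only Ifitm3 of the 6 was higher in all 3 experiments, where 15.2% of all genes were, and Ifitm5 and Ifitm6 were lower in all 3, where 28.3% were. Ifitm3 was also the 1 member with a mean at least 1.5-fold higher in deleted cells and higher in all 3 experiments, a rule met by 0.896% of genes. No member had deleted arrays wholly above the controls, as 3.26% of genes did, or wholly below them, as 9.93% did. At limma's adjusted p under 0.05, 0 of 6 members were called without the block (0.00495% of all genes) and 0 with it (0%). At an unadjusted p under 0.05 the counts were 0 of 6 without the block (6% of all genes) and 1 of 6, Ifitm3, with it (17.1%).

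**Figure D2:**
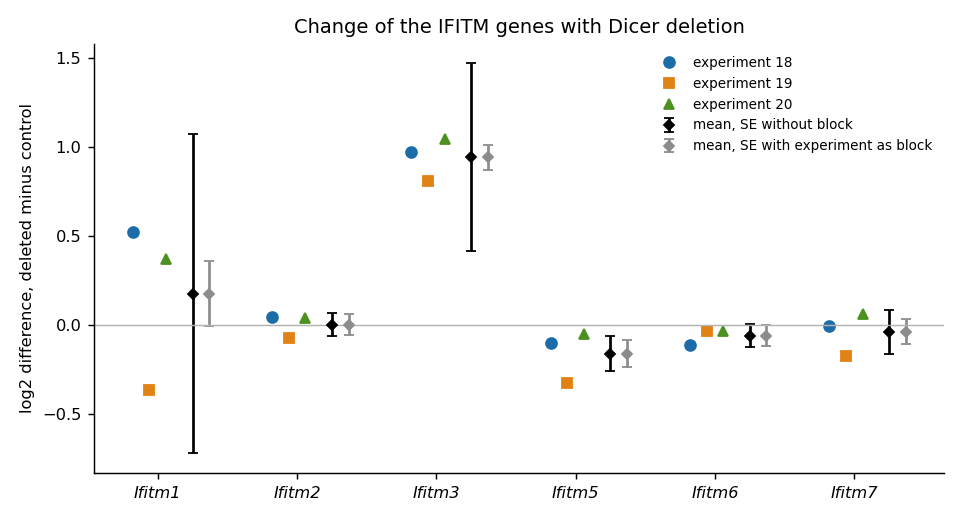
Log2 difference of deleted minus control for each IFITM gene: coloured points are single experiments, diamonds the mean of the 3 with its SE without (black) and with (grey) the experiment as a block. The 3 points of Ifitm3 lie between 0.81 and 1.05, while those of Ifitm1 run between -0.37 and 0.52; the SE of both shrinks with the block, for Ifitm3 to 0.07.

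Differences between the experiments were not used to choose the members and are separate, by design, from the deleted minus control differences, so they were tested. The fit held group and experiment, and limma's F test of the experiment terms was adjusted over all genes. Ifitm1 (adjusted p = 0.00835) and Ifitm3 (adjusted p = 0.00507) passed, so 2 of 6 members did, where 21.4% of all genes did. Ifitm7 (0.123), Ifitm5 (0.336), Ifitm6 (0.579) and Ifitm2 (0.672) did not. Both calls held without any 1 array, with an adjusted p of at most 0.0488 for Ifitm1 and 0.0457 for Ifitm3. The count over all genes, 4331, fell to 311 without control 18, 243 without deleted 18, 1982 without control 19 and 2349 without deleted 19, and was 6801 without deleted 20.

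With group taken out, Ifitm3 was 2.40-fold higher in experiment 20 than in experiment 18 (limma adjusted p = 0.00289) and 2.60-fold higher than in experiment 19 (limma adjusted p = 0.00488). Its levels in experiments 19 and 18 were not told apart, at a log2 difference of -0.12 ± 0.09 (SE, 2 arrays per experiment; limma adjusted p = 0.566). Ifitm1 was 2.45-fold higher in experiment 20 than in experiment 18 (limma adjusted p = 0.0162) and 5.94-fold higher than in experiment 19 (limma adjusted p = 0.00698). Between experiments 19 and 18 its log2 difference was -1.28 ± 0.22, which did not pass (limma adjusted p = 0.0842). Over all genes 12.7% were called higher in experiment 20 than in experiment 18 and 7.04% than in experiment 19. The order of levels was thus 20, 18, 19 for Ifitm1 in both groups, with 18 and 19 not separated by the test, and experiment 20 above the other two for Ifitm3.

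**Figure D3:**
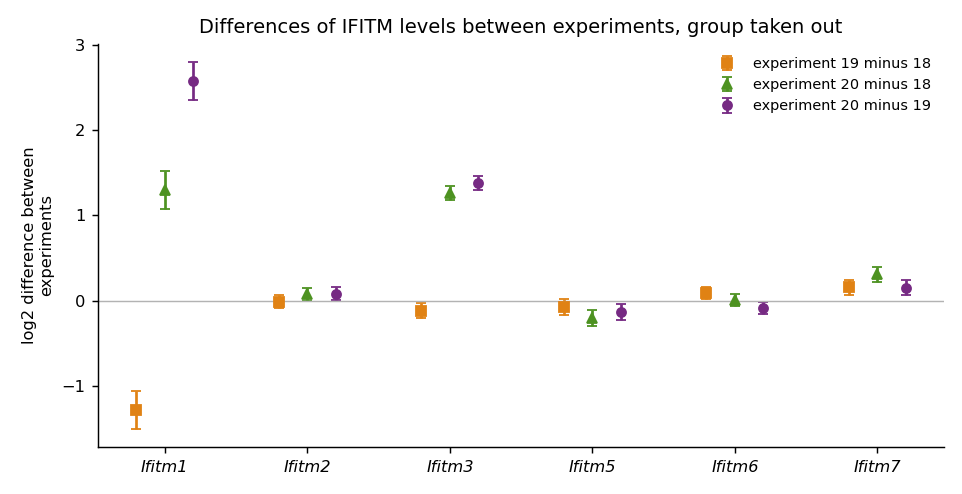
Log2 differences between pairs of experiments for each IFITM gene, with group taken out; bars are the SE of the limma fit with 2 arrays per experiment. Ifitm1 reaches 2.57 between experiments 20 and 19 and Ifitm3 1.38, and every value of the other members lies between -0.21 and 0.31.

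Markers of the primitive streak and of endoderm also had their highest signal in experiment 20. Both arrays of that experiment were above the other 4 for 8 of 15 streak and mesoderm genes (53.3%) and for 4 of 7 endoderm markers (57.1%), where 17.4% of all genes showed this. The summed signal of the endoderm markers was 1404, 2123 and 6114 in deleted cells of experiments 18, 19 and 20, against 1418, 1954 and 7819 in controls. For the streak list it was 5867, 6791 and 22820 in deleted cells, against 5268, 5907 and 26810 in controls. None of the 10 epiblast markers had both arrays of experiment 20 highest, while 15 of 37 measured interferon-induced genes did (40.5%). With deletion, 1 of 15 streak genes was higher in all 3 experiments (6.67%, against 15.2% of all genes) and 5 were lower (33.3%, against 28.3%). The 1 that was higher, named after its values were seen, was the Brachyury gene T, a mesoderm factor with the largest mean difference of its list. T read 1012, 1200 and 11800 in deleted cells of experiments 18, 19 and 20, against 347.8, 271.1 and 7004 in controls. Its log2 difference was 1.48, with an SE of 1.59 (n = 3 per group) without the block and 0.26 with it. Like Ifitm3, T was higher with deletion in each experiment and highest in experiment 20. The next largest mean differences of the list, also named after their values were seen, were negative. Mixl1 was at -0.436 ± 1.405 and Eomes at -0.305 ± 0.815, with SEs of 0.346 and 0.206 with the block. Of the 7 endoderm markers 2 were higher in all 3 experiments, Foxa2 at 0.27 ± 1.17 and Sox17 at 0.30 ± 1.04. With the block their SEs were 0.07 and 0.12. Another 3 were lower in all 3 experiments, Gata4 at -0.36 ± 0.24, Sox7 at -0.20 ± 0.06 and Afp at -0.17 ± 0.06. The streak ligand gene Wnt3a was at -0.24 ± 0.06, and limma called 0 genes of either list with or without the block. At an unadjusted p under 0.05 there were 1 streak gene and 2 endoderm markers without the block (6% of all genes) and 3 of each with it (17.1%). Their part in the IFITM signal was not tested.

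Genes with the pattern most like each member over the 6 arrays were taken from 1840 genes at or above the median level that varied by at least 1 log2 unit. All values of Pearson's r are descriptions over 6 arrays that share experiments. For Ifitm3 they were Arhgap1 (r = 0.992), Phldb2 (r = 0.985) and the fibronectin gene Fn1 (r = 0.980). Fn1 read 4813, 4970 and 8618 in deleted cells of experiments 18, 19 and 20, against 3438, 2874 and 5111 in controls. These genes were picked on the same 6 arrays, so a pattern shared with the member follows from the choice. For Ifitm1 they were the zinc transporter gene Slc30a3 (r = 0.987), Dap (r = 0.980) and Prune1 (r = 0.979). Slc30a3 read 1272, 704.4 and 1673 in deleted cells, against 911.5, 740.0 and 1471 in controls, with the lowest signal in experiment 19. For Ifitm2, which hardly varied, they were the cadherin gene Cdh13 (r = 0.944), the desmoplakin gene Dsp (r = 0.939) and Nradd (r = 0.932). Between the members themselves r was 0.764 for Ifitm1 with Ifitm3 and 0.686 for Ifitm2 with Ifitm3.

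None of the 8 measured genes flanking the family had a mean difference as large as that of Ifitm3. On chromosome 7, Nlrp6, an inflammasome sensor gene, was at a log2 difference of -0.05 ± 0.06 and Pgghg at 0.22 ± 0.23 on one side. On the other were B4galnt4 at -0.04 ± 0.27 and the plakophilin gene Pkp3 at -0.04 ± 0.12 (SE, n = 3 per group). Pgghg was higher in all 3 experiments but by less than Ifitm3, at 859.5, 882.4 and 1277 in deleted cells and 680.5, 859.1 and 1060 in controls. Beside Ifitm7 on chromosome 16, Pdxdc1 was at 0.07 ± 0.08, Mpv17l at 0.03 ± 0.12, Bmerb1 at 0.55 ± 0.43 and Marf1 at 0.12 ± 0.28. By limma 0 of the 8 were called in either fit, with 0 at an unadjusted p under 0.05 without the block (6% of all genes) and 2 with it (17.1% of all genes).

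Interferons induce IFITM genes through receptors, JAK kinases and STAT and IRF factors, so these layers were set beside the family. The interferon genes themselves gave 0 of 8 measured members higher in all 3 experiments (15.2% of all genes were). They gave 3 lower in all 3 (37.5%, against 28.3% of all genes), with a median log2 difference of -0.09. Ifne was at -0.15 ± 0.07, Ifna5 at -0.13 ± 0.08 and Ifnl2 at -0.22 ± 0.13. The signal of Ifne was low, at 109.6 to 131.6 over the 6 arrays. Receptors and signalling genes had 10 of 17 higher in all 3 (58.8%, against 15.2% of all genes). They had 1 lower in all 3 (5.88%, against 28.3%), with a median of 0.22. The interferon gamma receptor gene Ifngr1 was at 0.25 ± 0.11, the type I receptor gene Ifnar1 at 0.22 ± 0.11 and Ifngr2 at 0.36 ± 0.20. The largest mean difference of this list, named after its value was seen, was that of the transcription factor gene Irf2 (0.84 ± 0.50, SE 0.23 with the block).

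Among 37 measured interferon-induced genes, 28 had a higher mean in deleted cells (75.7%, against 37.8% of all genes). In all 3 experiments 12 were higher (32.4%, against 15.2%) and 2 lower (5.41%, against 28.3%). The median difference was 0.17, and by experiment it stood at 0.09 (18), -0.08 (19) and 0.47 (20). Eif2ak2, which encodes the double-stranded RNA-activated kinase PKR, read 354.9, 377.6 and 593.6 in deleted cells of experiments 18, 19 and 20, against 231.6, 247.0 and 361.1 in controls. It was higher with deletion in each and highest in experiment 20 within both groups, as Ifitm3 was (log2 difference 0.65 ± 0.26, SE 0.06 with the block). Ifit2, a tetratricopeptide antiviral gene, was at 0.60 ± 0.23 and Oas3, an oligoadenylate synthetase gene, at -0.18 ± 0.07. The 3 largest mean differences of this list, named after their values were seen, were those of Gbp2, a guanylate-binding protein gene (1.06 ± 0.88), the RNA sensor gene Ifih1 (0.72 ± 0.60) and Oasl2 (0.67 ± 0.56). With the block their SEs were 0.17, 0.23 and 0.23. Gbp2 read 788.5, 889.0 and 3831 in deleted cells of experiments 18, 19 and 20, against 286.3, 598.1 and 1719 in controls. It was higher with deletion in each and highest in experiment 20 within both groups, as Ifitm3 was. Oasl2 was lower with deletion in experiment 19, at 0.967 times the control signal. The part of interferon signalling in the IFITM values was not tested. Of the 62 genes in these 3 lists, limma called 0 with or without the block. At an unadjusted p under 0.05 there were 2 without it (6% of all genes) and 20 with it (17.1% of all genes).

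**Figure D4:**
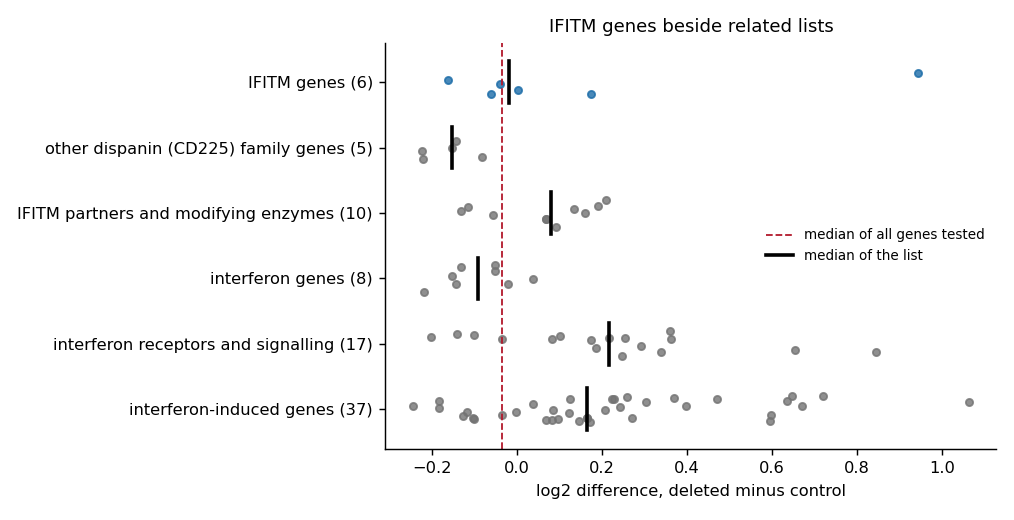
Log2 differences of deleted minus control for the 6 IFITM genes and for 5 related lists (number of measured genes in brackets; vertical scatter has no meaning); black bars are list medians and the dashed line the median of all genes, -0.04. Ifitm3 at 0.94 stands away from the other IFITM genes, which lie between -0.16 and 0.18.

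Other genes of the dispanin (CD225) family, which share the IFITM membrane domain, gave 0 of 5 measured members with a higher mean (37.8% of all genes). They gave 3 lower in all 3 experiments (60.0%, against 28.3% of all genes). The largest of those named was Syndig1l at -0.22 ± 0.08, with Prrt1 at -0.15 ± 0.07 and the glucose transport regulator gene Trarg1 at -0.14 ± 0.05. The signal of Trarg1 was low, at 135.2 to 152.8 over the 6 arrays. Partners and modifying enzymes of IFITM proteins had 3 of 10 higher in all 3 experiments, where 15.2% of all genes were. They had 2 lower in all 3, where 28.3% of all genes were, and a median of 0.08. The membrane contact gene Vapa was at -0.12 ± 0.08, the tetraspanin gene Cd81 at 0.16 ± 0.11 and the ubiquitin ligase gene Nedd4 at 0.07 ± 0.06. Of these 15 genes limma called 0 in either fit, with 2 at an unadjusted p under 0.05 without the block (6% of all genes) and 3 with it (17.1% of all genes).

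The LIF and STAT3 pathway had 5 of 10 genes higher in all 3 experiments, where 15.2% of all genes were. It had 2 lower in all 3, where 28.3% of all genes were. Its median was 0.16, and its receptor subunit gene Il6st was at 0.81 ± 0.16. Stat3 was at 0.61 ± 0.14 and Osmr at -0.09 ± 0.06. Germ cell genes, among which Ifitm3 is often counted, had 1 of 11 higher in all 3 (9.09%, against 15.2% of all genes) and 4 lower in all 3 (36.4%, against 28.3%), with a median of -0.16. Nanos3 was at -0.19 ± 0.06, Dnd1 at -0.16 ± 0.07 and Dppa3 at -0.17 ± 0.09, while the 1 higher in all 3, Alpl, was at 0.22 ± 0.15. Nanos3 read 188.9 to 228.4, Dnd1 106.1 to 129.5 and Dppa3 60.32 to 77.41, all below the array medians of 247.7 to 260.1. The largest mean difference of this list, named after its value was seen, was that of Prdm1 (-0.32 ± 0.81, SE 0.21 with the block). Bone and osteoblast genes, the setting of Ifitm5, had 2 of 12 higher in all 3, where 15.2% of all genes were. They had 3 lower in all 3, where 28.3% of all genes were, and a median of -0.04. Spp1, which encodes osteopontin, was at 0.47 ± 0.16 and the osteoblast factor gene Sp7 at -0.16 ± 0.09. Of the 32 different genes in these 3 lists limma again called 0 in either fit, with 5 at an unadjusted p under 0.05 without the block (6% of all genes) and 8 with it (17.1% of all genes).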

How the data were processed

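RNA of 6 EpiSC samples was hybridised to Affymetrix MoGene 1.0 ST arrays, annotated on mm9 per the file headers. Per the submitters' processing notes, RMA and Affymetrix Expression Console 1.2 were used. The deposited table gives each array as a linear intensity after RMA and as a log2 value centred by the authors on the probe set's median; the deposited series table holds the same log2 values (largest difference 0). RMA had equalised the arrays (median intensity 247.7 to 260.1), so a general shift in RNA cannot be seen, and detection calls were not used.

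The log2 of the intensity was tested. Of 28856 probe sets, 22430 with 1 symbol and 1 Entrez identifier gave 20193 genes. Symbols were updated through RefSeq (GRCm38.p6), where 19486 genes matched. Deleted and control arrays were set against each other in limma 3.58.1 (R 4.3.3; lmFit and eBayes with no term but group), with Benjamini-Hochberg adjustment over all genes; a second fit with group and experiment gave the F test between experiments. P-values set a difference against the spread between these samples. In the fit without the block that spread includes the differences between experiments. In the blocked fit and the F test it is what remains after group and experiment. The labels pair the samples by experiment, and deviations from group means correlated at r = 0.83, 0.61 and 0.80 in experiments 18, 19 and 20. An SE after ± for a deleted minus control difference is from the fit without the block, so it holds the experiment baselines. The fits were also run on 3 sets of simulated arrays with 200 changed genes each and noise independent between arrays. The outcome is not given here, and no result above rests on it. Start region sequences are from RefSeq; all 6 members matched.

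The members, the 14 lists and the naming rule were chosen with earlier results of these data known. Named genes were the members, Dicer1 and up to 3 genes per list with the smallest unadjusted p. The 3 genes most like Ifitm1, Ifitm2 and Ifitm3, and up to 2 measured neighbours on each side, were named too. Some genes named beyond this rule are marked in the text as named after their values were seen. Cd68, Foxa2, Sox17, Alpl and Ifitm10 also lie beyond it and carry no such mark. Alternatives were the block, level filter, eBayes settings, normalization, centring, probe sets, array weights, the series table, and leaving out arrays or experiments. Python 3.11.15 and matplotlib 3.10.9 drew the figures.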

Additional observations from a re-analysis of the deposited data

How the results depend on the processing

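The 1 gene called between deleted and control cells, Dicer1, became 0 genes with the replicate block, with trend and robust settings, without any 1 array (0 to 0) and without any 1 experiment. With the replicate block the count was 0 without experiment 18 or 19 and 388 without experiment 20, 314 higher and 74 lower. That combination was added after results were known, and Ifitm3 was among the 314. The count of genes differing between experiments ran from 243 to 6801 when 1 array was left out. The family median of -0.02 was 0.18 over the 3 members at or above the median level, and -0.09 to 0.02 without 1 array. Ifitm3, Ifitm5 and Ifitm6 kept their direction under every alternative that gave a value (the level filter gave none for Ifitm5 and Ifitm6), Ifitm3 between 0.48 and 1.36. Ifitm1 turned to -0.067 with array weights and ran from -0.52 to 0.95 without 1 array. Ifitm2 turned to -0.003 with the mean of all probe sets, -0.026 with array weights and -0.040 with another of its probe sets. Without experiment 18 it was -0.019 and without experiment 20 -0.016, with or without the replicate block, and it ran from -0.033 to 0.037 without 1 array. Ifitm7 turned to 0.005 with quantile normalization again and 0.029 without experiment 19, with or without the replicate block, and ran from -0.141 to 0.029 without 1 array. The causes were not tested. The series table moved nothing. Ifitm6 read 65.67 to 73.66 on arrays whose lowest signal was 27.23.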

Other observations

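Ifitm10, a further IFITM gene that the array lists under an older clone name and that was not among the 6, read 178.1, 177.0 and 165.2 in deleted cells of experiments 18, 19 and 20. In controls it read 203.7, 181.4 and 191.1. It was lower with deletion in each experiment, with a log2 difference of -0.15 ± 0.07 (SE, n = 3 per group; limma adjusted p = 0.837).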
